A study of Equus caballus with 33 samples.

Results

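The comparison described here set articular cartilage explants of the horse that had been stimulated with interleukin-1β (IL-1β) against unstimulated explants harvested on the same day, day 9 of culture. Its members were chosen by the sample titles, which name 3 stimulated and 3 control arrays of day 9, numbered 1 to 3 in each group, of 33 arrays in all. The donors were 3 horses free of joint disease, sampled at the distal end of a metacarpal bone. All explants were first kept in medium for 48 h. The stimulated group then received recombinant equine IL-1β at 10 ng/mL, and the control group stayed in medium without it. Each well held 3 explants, of which 2 were cut up and treated with trypsin, followed by collagenase, to free the cells for RNA extraction, in both groups alike. The whole series has 11 groups of 3 arrays, with both kinds of explant at 5 times and unstimulated explants also at day 0. Levels are the deposited values on the log2 scale of a gene array, and every difference is IL-1β minus control at day 9 on that scale, with the standard error of the fit (n = 3 and 3).

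Articular cartilage holds a single resident cell type, the chondrocyte, which lays down collagen II fibrils and the large proteoglycan aggrecan. IL-1β binds its receptor on chondrocytes and signals through MyD88 to the transcription factor NF-κB and to stress-activated kinases. In cartilage culture the cytokine is known for inducing collagenases, aggrecanases, nitric oxide and prostaglandin synthesis and for lowering the expression of matrix genes. Explants hold intact matrix as well as cells, and in such bulk samples fewer cells of a type and less RNA per cell cannot be told apart.

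At day 9, the collagenases MMP1, MMP8 and MMP13, the chemokines CCL20, CXCL6, CXCL1 and CXCL8, the alarmins S100A12 and S100A9, and the nitric oxide and prostaglandin enzymes NOS2, PTGS2 and PTGES rose with IL-1β. The matrix proteins CILP, CHAD and CNMD and the small leucine-rich proteoglycans OMD and LUM fell, as did 49 of 54 measured genes of cytosolic ribosomal proteins. With limma and a threshold of 0.05 on the adjusted p, 1954 probe sets were called among 25923, which is 7.54% of those tested, 1013 of them higher (3.91%) and 941 lower (3.63%) with IL-1β. A difference of at least 2-fold was held by 941 of them (3.63%), 497 higher (1.92%) and 444 lower (1.71%). The groups did not overlap, higher with IL-1β, in 13.4% of genes, and lower in 13.3%. Counted by gene, with 1 probe set for each of 16661 symbols, 895 genes rose (5.37%) and 803 fell (4.82%), so that 10.2% of genes were called. Counts of list members below are to be read beside these shares. The shares cover symbols of all levels, and 1784 of the 1954 called probe sets lay above the median mean level. A list of high or low level is thus set beside an unlike background. The difference had the same sign within all 3 replicate numbers for 1692 of the 1698 called genes. These genes were called on the same arrays, so the shared sign is not separate support. The median difference over all genes was -0.02. The fit used no pairing by number. With the number as a fixed block, 2530 probe sets were called, and all of the 1954 calls remained. Of the 8791 probe sets without a gene symbol, 199 were called (2.26%).

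The count of calls depended on the replicate number left out. Without number 1, 1271 probe sets were called. Without number 3, 1239 were called. Without number 2 the count was 638, and 613 of the 1954 calls (31.4%) remained. No call changed its sign in any refit, though the refits drew on the same arrays and are not separate support. Each gene named as called was therefore refitted 9 times, without each of the 3 numbers in turn and without each of the 6 arrays of day 9 in turn. Leaving out a number removed its arrays from all 11 groups and lowered the residual degrees of freedom from 22 to 11. A call lost only without a number still passed without each single array of day 9. Below, a left-out library stands for a number or for an array of day 9. Those that ended a call are given in parentheses after the gene, where "control array 2" stands for the control array of number 2. The parentheses also give the largest adjusted p over the 9 refits, and the difference where a refit moved it by over 1.5 times. Array medians of the 6 arrays lay between 5.19 and 5.33, and the correlation between arrays over all probe sets was 0.970 to 0.986 within a group and 0.954 to 0.972 between the groups. On the first principal component of all 33 arrays, which held 32.7% of the variance, stimulated explants of day 9 lay at 36.3 ± 4.79 and controls at -36.6 ± 5.60 (SD, n = 3).

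The largest rise at day 9 was in MMP1, the interstitial collagenase. MMP1 measured 13.21, 13.26 and 13.08 in the stimulated and 5.02, 4.56 and 4.40 in the control explants, a 368-fold difference (8.52 ± 0.38, adjusted p = 4.38e-14). The 3 stimulated arrays lay within a narrow band and far above every control. S100A12, a calcium-binding alarmin, measured 12.63, 12.62 and 12.63 against 5.26, 4.97 and 4.89, a 192-fold difference (7.59 ± 0.42, adjusted p = 2.63e-12). CCL20, a chemokine that binds CCR6, measured 13.40, 13.44 and 13.26 against 6.38, 5.20 and 7.50 (7.0 ± 0.49, adjusted p = 1.53e-10). Stimulated levels of both genes were nearly equal across the 3 numbers, and those of CCL20 again lay near the highest deposited value. For CCL20 the controls were spread, lowest in number 2 and highest in number 3. The other genes among the 12 largest rises were CXCL6, a neutrophil-attracting chemokine (6.46 ± 0.51, adjusted p = 1.26e-09), PTX3, a soluble pattern-recognition protein (6.29 ± 0.33, adjusted p = 6.79e-13), TREM1, a receptor that amplifies inflammatory signals (6.11 ± 0.36, adjusted p = 1.06e-11), NOS2, the inducible nitric oxide synthase (6.03 ± 0.41, adjusted p = 8.66e-11), and MMP13, the collagenase that prefers collagen II (5.93 ± 1.19, adjusted p = 0.00140). They also held C1H15orf48, a mitochondrial protein (6.31 ± 0.47, adjusted p = 3.87e-10), ADTRP, a membrane hydrolase of fatty acid esters (5.83 ± 0.42, adjusted p = 2.32e-10), and LOC100061699 (6.46) and LOC100061631 (5.87), which the annotation used here leaves without a gene name. Of the 12, a left-out library ended the call of MMP13 (numbers 1 and 2, adjusted p up to 0.161).

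**Figure D1:**
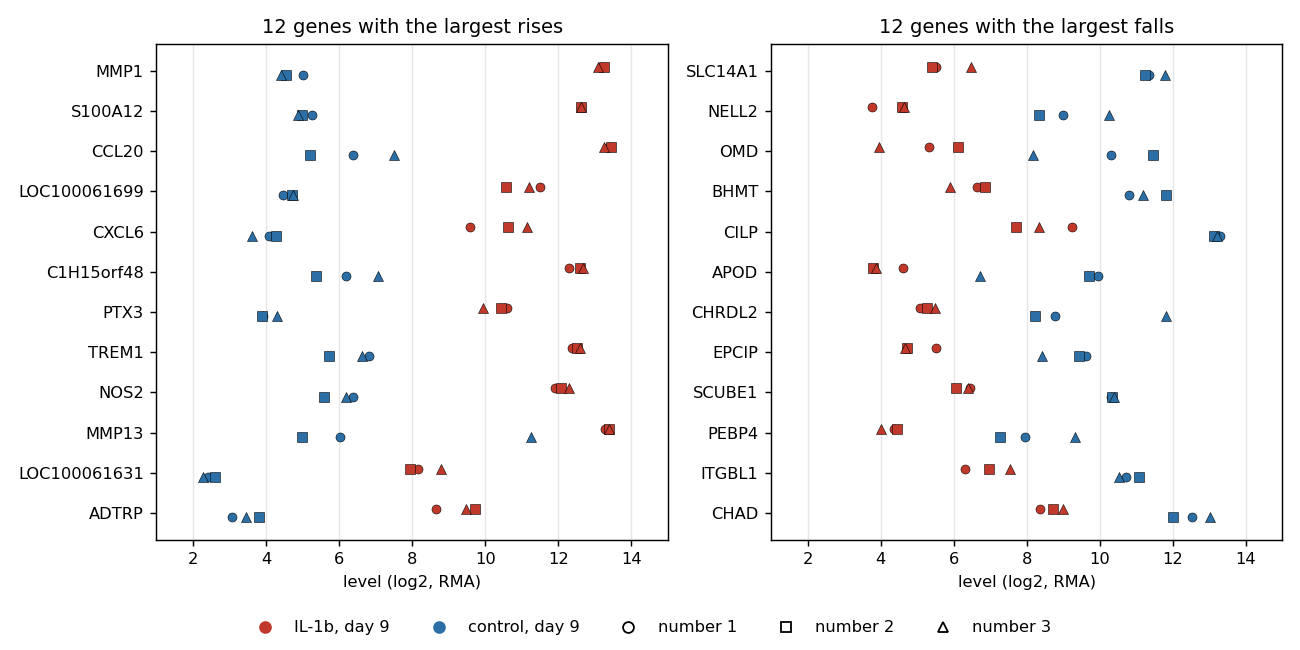
Levels of the 12 genes with the largest rises (left) and the 12 with the largest falls (right) in the 6 arrays of day 9, on the log2 scale of the deposited values. Red marks are stimulated and blue marks control explants, and circles, squares and triangles are numbers 1, 2 and 3. In every gene shown the red and blue marks do not overlap, and the control of number 3 stands away from the other controls for MMP13 at 11.24, CHRDL2 at 11.82 and APOD at 6.71.

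The largest fall was in SLC14A1, the urea transporter B. SLC14A1 measured 5.51, 5.40 and 6.47 in the stimulated and 11.34, 11.25 and 11.77 in the control explants, a 50.5-fold difference (-5.66 ± 0.43, adjusted p = 6.98e-10). The groups stood more than 4 log2 units apart at their nearest arrays. NELL2, a secreted protein with von Willebrand factor C domains, fell by 4.86 ± 0.82 (adjusted p = 0.000199), with controls at 8.98, 8.34 and 10.24. CILP, the cartilage intermediate layer protein, measured 9.25, 7.70 and 8.33 with IL-1β against 13.29, 13.12 and 13.21 (-4.78 ± 0.59, adjusted p = 2.33e-06). Its controls were tight and its stimulated arrays spread over more than 1 log2 unit. BHMT, betaine-homocysteine methyltransferase, fell by 4.81 ± 0.43 (adjusted p = 1.68e-08). The other large falls were in the proteoglycan OMD (-4.84 ± 0.99, adjusted p = 0.00157), the lipocalin APOD (-4.71 ± 0.54, adjusted p = 9.49e-07), the BMP-binding CHRDL2 (-4.32 ± 0.70, adjusted p = 0.000107), EPCIP (-4.18), the secreted SCUBE1 (-4.05 ± 0.35, adjusted p = 9.23e-09), PEBP4 (-3.91), the integrin-beta-like ITGBL1 (-3.83 ± 0.36, adjusted p = 2.72e-08) and the matrix protein CHAD, chondroadherin (-3.81 ± 0.51, adjusted p = 8.21e-06). Of the 12, a left-out library ended the call of OMD (number 1, adjusted p up to 0.0864).

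Among 45 measured matrix-degrading proteases, 12 rose, 1 fell and 32 were not called, and the median difference was 0.17. Beside MMP1 and MMP13, the collagenase MMP8 measured 9.03, 9.38 and 7.81 against 3.50, 3.74 and 3.84 (5.05 ± 0.32, adjusted p = 2.77e-11). The aggrecanase ADAMTS4 measured 9.58, 8.96 and 9.71 against 5.56, 5.16 and 5.47 (4.02 ± 0.43, adjusted p = 2.94e-07). For both genes each stimulated array lay above each control. MMP3, stromelysin, measured 13.43, 13.43 and 13.48 against 9.90, 8.40 and 11.48 (3.52 ± 0.53, adjusted p = 4.02e-05), with stimulated arrays nearly equal and controls lowest in number 2 and highest in number 3. ADAMTS9, another member of the aggrecanase family, rose by 2.66 ± 0.30 (adjusted p = 5.79e-07). The aggrecanase ADAMTS5 measured 9.10, 8.72 and 8.68 against 9.01, 6.22 and 8.91, and with a difference of 0.78 ± 0.61 it was not called (adjusted p = 0.569). Its groups overlapped, and the control of number 2 stood below the other 5 arrays. The protease that fell was the membrane-type MMP16, by 1.91 ± 0.23 (adjusted p = 2.29e-06). Of 16 measured protease inhibitors, 5 rose and 4 fell. The elastase inhibitor PI3, or elafin, rose by 4.54 ± 0.45 (adjusted p = 8.61e-08). The Kunitz-type inhibitors TFPI2 (3.85 ± 0.72, adjusted p = 0.000674) and TFPI (1.91 ± 0.37, adjusted p = 0.000842) and the metalloproteinase inhibitors TIMP1 (0.92 ± 0.21, adjusted p = 0.00571) and TIMP3 (0.74 ± 0.15, adjusted p = 0.00148) were the other 4 that rose. The count of 5 fell to 1 and that of 4 to 0 without number 2. Left-out libraries ended the calls of TFPI2 (number 2, adjusted p up to 0.0787) and TFPI (number 2, adjusted p up to 0.0549) and of TIMP1 (numbers 2 and 3 and control array 2, adjusted p up to 0.163) and TIMP3 (number 2, adjusted p up to 0.0755).

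Of 36 measured cartilage collagens and matrix proteins, 16 fell (44.4%) and 2 rose (5.56%), beside 4.82% and 5.37% of all genes. The median difference was -0.76. Apart from CILP and CHAD, CNMD, or chondromodulin, a cartilage glycoprotein that restrains vessel growth, measured 5.44, 5.35 and 5.42 against 8.14, 8.38 and 9.18 (-3.16 ± 0.24, adjusted p = 6.98e-10). COL11A1, a chain of the collagen XI that nucleates cartilage fibrils, measured 6.02, 6.04 and 6.47 against 7.74, 7.13 and 8.20 (-1.51 ± 0.21, adjusted p = 1.66e-05). In both genes the control of number 3 was the highest array and the groups did not overlap. MGP, an inhibitor of mineral deposition, fell by 1.12 ± 0.18 (adjusted p = 9.15e-05), and CILP2 fell by 1.15 ± 0.19 (adjusted p = 0.000112). ACAN, the core protein of aggrecan, measured 11.84, 11.63 and 11.87 against 12.68, 12.68 and 12.67 (-0.90 ± 0.24, adjusted p = 0.0149), a difference smaller than that of the minor matrix proteins above. COL2A1, the main fibril collagen of cartilage, measured 5.17, 6.58 and 6.91 against 5.78, 6.17 and 6.98. Its groups overlapped fully, and the difference of -0.09 ± 0.49 was not called (adjusted p = 0.959). The array medians were 5.19 to 5.33, and COL2A1 lay much nearer to them than ACAN did. How well the probe set of COL2A1 reports the transcript was not tested. HAPLN1, the link protein that ties aggrecan to hyaluronan, rose, from 11.60, 11.15 and 11.91 to 12.22, 12.35 and 11.97 (0.63 ± 0.16, adjusted p = 0.0134). COMP, cartilage oligomeric matrix protein, measured 9.39, 9.55 and 8.31 against 11.85, 11.55 and 9.25 (-1.80 ± 0.58, adjusted p = 0.0597). It passed with the replicate number as a block (adjusted p = 0.00403), without number 3 (adjusted p = 0.00574) and without control array 3 (adjusted p = 0.00321). Number 3 held the lowest array of both groups for COMP. The count of 16 was 9 without number 2, and the 2 rises were 0 without number 1, without number 2 or with the 6 arrays of day 9 alone. Calls lost without a library were those of ACAN (numbers 2 and 3 and stimulated array 2, adjusted p up to 0.373) and HAPLN1 (numbers 1 and 2, stimulated array 2 and control array 2, adjusted p up to 0.606, difference 0.34 without number 2), and quantile normalisation repeated on the deposited values ended that of ACAN.

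The small leucine-rich proteoglycans bind collagen fibrils and set their diameter. Of 12 measured, 5 fell and none rose, and the median difference was -1.12. OMD, or osteomodulin, measured 5.32, 6.11 and 3.94 against 10.29, 11.44 and 8.16, with number 3 lowest in both groups. LUM, lumican, measured 9.66, 8.74 and 7.74 against 12.47, 12.33 and 10.83 (-3.16 ± 0.56, adjusted p = 0.000366). OGN, osteoglycin, measured 3.60, 3.85 and 3.32 against 6.66, 9.02 and 4.36 (-3.10 ± 0.74, adjusted p = 0.00729). Stimulated levels of OGN lay within 1 log2 unit, and its controls were spread over more than 4. EPYC, epiphycan, fell by 3.07 ± 0.64 (adjusted p = 0.00211), and FMOD, fibromodulin, by 1.41 ± 0.42 (adjusted p = 0.0385). BGN, biglycan, measured 11.35, 10.81 and 11.51 against 11.81, 11.89 and 12.48 and was not called (-0.84 ± 0.34, adjusted p = 0.157), but passed with the replicate block (adjusted p = 0.0487). The count of 5 was 1 without number 1. Lost on leaving out libraries were the calls of LUM (number 2, adjusted p up to 0.0561) and OGN (numbers 1 and 2 and control array 2, adjusted p up to 0.221, difference -1.93 without control array 2) and of EPYC (number 1, adjusted p up to 0.128) and FMOD (numbers 1 and 2, stimulated arrays 1 and 2 and control arrays 2 and 3, adjusted p up to 0.422). Of 19 enzymes that modify collagen, 2 rose and 3 fell. BMP1, which cleaves the C-terminal propeptide of procollagen, rose by 1.64 ± 0.17 (adjusted p = 2.62e-07), and PCOLCE2, which enhances that cleavage, fell by 1.20 ± 0.25 (adjusted p = 0.00203). A left-out library ended the call of PCOLCE2 (number 2, adjusted p up to 0.201). Without number 2, none of the 3 falls was called, and the 2 rises were 1 without number 1, 2 or 3 alike.

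Among 25 genes of chondrocyte transcription and differentiation, 7 fell and 3 rose. CYTL1, a secreted cytokine-like protein of chondrocytes that the list holds beside the transcription factors, measured 6.79, 6.74 and 7.14 against 8.82, 11.04 and 11.20 (-3.47 ± 0.39, adjusted p = 8.08e-07). The control of number 1 lay more than 2 log2 units below the other controls and still above every stimulated array. The transcription factors EBF1 (-2.29 ± 0.35, adjusted p = 4.64e-05), NFATC2 (-2.22 ± 0.29, adjusted p = 5.07e-06), SOX6, a partner of SOX9 (-1.23 ± 0.18, adjusted p = 2.64e-05), ERG (-0.98 ± 0.17, adjusted p = 0.000360) and MEF2C (-1.04 ± 0.24, adjusted p = 0.00444) fell. SOX9, the master regulator of chondrocyte identity, measured 6.49, 6.68 and 6.99 against 6.84, 6.75 and 6.84. Its groups overlapped and it was not called (-0.09 ± 0.23, adjusted p = 0.901). The count of 3 rises was 0 without number 1 and also without number 2. A left-out library ended the call of MEF2C (numbers 1 and 3, adjusted p up to 0.158). Of 20 genes of hypertrophy and mineralisation, 5 fell, none rose, and the median difference was -0.36. PTH1R, the receptor of parathyroid hormone-related protein, measured 7.45, 7.49 and 7.43 against 9.81, 9.64 and 9.34 (-2.14 ± 0.22, adjusted p = 1.21e-07). ENPP1, which makes extracellular pyrophosphate, fell by 1.98 ± 0.15 (adjusted p = 1.02e-09), and ANKH, which exports pyrophosphate precursors, by 1.34 ± 0.13 (adjusted p = 8.61e-08). NT5E, the ectonucleotidase that makes adenosine, fell by 1.23 ± 0.19 (adjusted p = 5.75e-05). COL10A1, the collagen of hypertrophic chondrocytes, measured 4.43, 4.01 and 4.18 against 6.98, 3.62 and 9.91. Its controls were spread over more than 6 log2 units, with the control of number 2 below all stimulated arrays, and the difference of -2.63 ± 0.94 was not called (adjusted p = 0.0971). It was -4.14 without number 2 (adjusted p = 0.0164) and -4.24 without control array 2 (adjusted p = 0.00104), which both passed, and -1.08 without number 3 (adjusted p = 0.715).

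**Figure D2:**
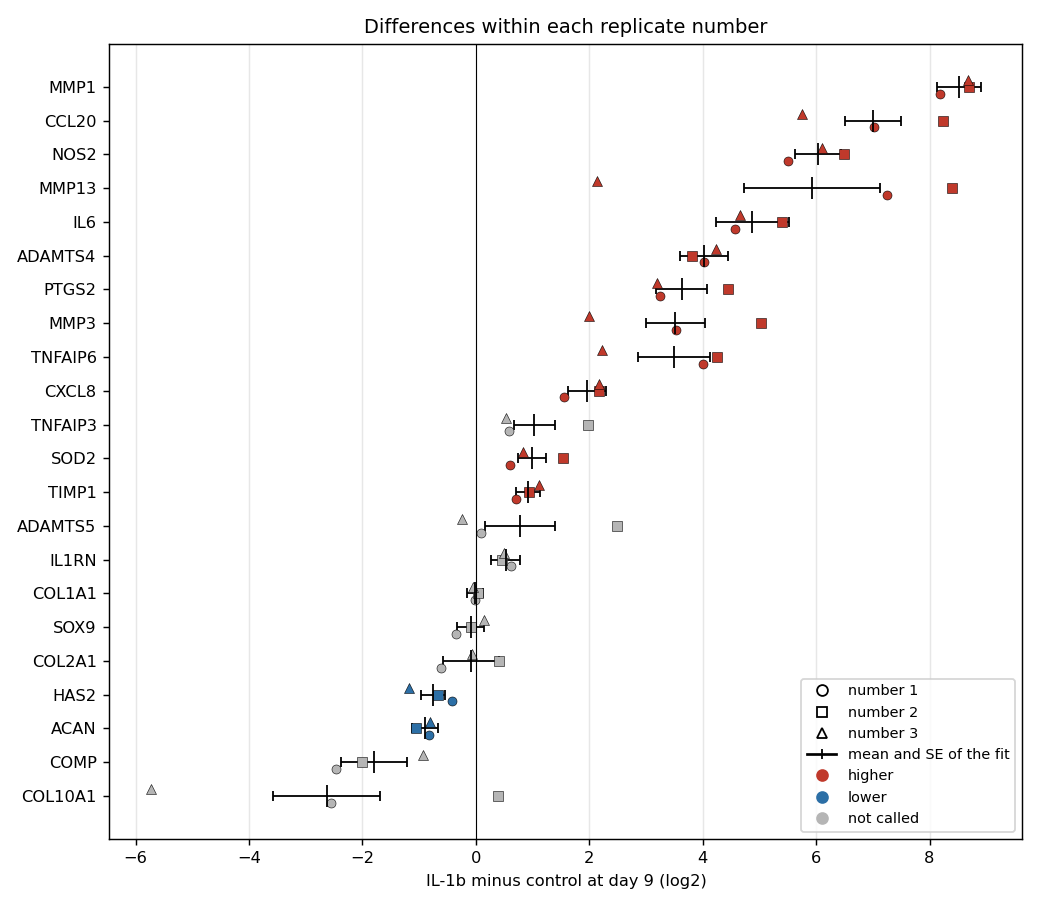
Difference between IL-1β and control at day 9 within each replicate number for 22 genes of cartilage inflammation and matrix, on the log2 scale. Circles, squares and triangles are numbers 1, 2 and 3, the black tick and bar give the fitted mean and its standard error, and colour gives the call at an adjusted p of 0.05. MMP13 ranges from 2.14 in number 3 to 8.40 in number 2, and the 3 values of ACAN lie together below 0.

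In the transforming growth factor beta, bone morphogenetic protein and activin pathway, 3 of 39 measured genes rose and 10 fell, with a median difference of -0.07. INHBA, the activin A subunit, rose by 2.71 ± 0.37 (adjusted p = 1.04e-05), and FSTL1, a follistatin-like secreted protein, by 1.09 ± 0.22 (adjusted p = 0.00142). CHRDL2, a chordin-like protein that binds bone morphogenetic proteins, measured 5.08, 5.28 and 5.50 against 8.78, 8.22 and 11.82, with the control of number 3 more than 3 log2 units above the other controls. CCN2, connective tissue growth factor, fell by 2.21 ± 0.33 (adjusted p = 4.37e-05), and the co-receptor TGFBR3, or betaglycan, by 1.0 ± 0.16 (adjusted p = 0.000128). Of 34 genes of the Wnt and Hedgehog pathways, 5 fell (14.7%) and 2 rose (5.88%), beside 4.82% and 5.37% of all genes. BOC, a surface co-receptor that binds Hedgehog ligands, measured 8.14, 7.97 and 8.53 against 11.34, 11.72 and 11.37 (-3.27 ± 0.23, adjusted p = 2.03e-10), a 9.63-fold difference. The signal transducer SMO fell by 1.25 ± 0.19 (adjusted p = 6.83e-05) and the Hedgehog receptor PTCH1, itself a target of the pathway, by 1.0 ± 0.20 (adjusted p = 0.00108). FRZB, a secreted Wnt inhibitor of cartilage, measured 10.53, 9.87 and 10.24 against 12.52, 12.48 and 12.65 (-2.34 ± 0.34, adjusted p = 3.32e-05). In BOC and FRZB each control array lay more than 1 log2 unit above each stimulated array. The 3 rises in the first pathway were 1 and its 10 falls 5 without number 2. The 2 rises in the second were 0 without number 2 or without number 3, and its 5 falls were 3 without number 1. Refits without a library ended the calls of FSTL1 (number 2, adjusted p up to 0.0546) and PTCH1 (number 1, adjusted p up to 0.0610). In the insulin-like growth factor axis, none of 18 genes rose and 2 fell, a share of 11.1% beside 10.2% of all genes. They were the binding protein IGFBP7 (-1.48 ± 0.25, adjusted p = 0.000149) and STC2, which inhibits the protease that frees the growth factor (-1.41 ± 0.36, adjusted p = 0.0115). Left-out libraries ended the call of STC2 (numbers 1 and 3 and stimulated array 1, adjusted p up to 0.168), and 3 genes of the axis fell with the replicate block or with the 6 arrays of day 9 alone and 1 without number 1.

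Of 41 measured genes of hyaluronan and glycosaminoglycan metabolism, 7 rose and 6 fell, and the median difference was 0.07. CD44, the main hyaluronan receptor, measured 10.84, 10.84 and 11.11 against 6.29, 5.47 and 6.50, a 28.6-fold rise (4.84 ± 0.33, adjusted p = 1.03e-10). The lowest stimulated array lay more than 4 log2 units above the highest control. TNFAIP6, or TSG-6, which moves heavy chains onto hyaluronan, measured 9.91, 9.88 and 10.01 against 5.91, 5.62 and 7.79 (3.49 ± 0.64, adjusted p = 0.000515). The heparan sulfate proteoglycan SDC4 (1.79 ± 0.26, adjusted p = 2.58e-05) and the chondroitin sulfotransferase CHST15 (1.13 ± 0.14, adjusted p = 3.79e-06) also rose. The proteoglycan cores SDC2 (-1.64 ± 0.16, adjusted p = 8.61e-08) and GPC6 (-2.20 ± 0.22, adjusted p = 1.03e-07) fell, as did CSGALNACT1, which starts chondroitin sulfate chains (-1.90 ± 0.20, adjusted p = 2.92e-07). HAS2, the hyaluronan synthase of chondrocytes, measured 9.39, 9.43 and 9.14 against 9.81, 10.10 and 10.33 (-0.76 ± 0.22, adjusted p = 0.0283). The 7 rises were 3 without number 2. Refits without a library ended the calls of TNFAIP6 (number 2, adjusted p up to 0.137) and HAS2 (numbers 1, 2 and 3, stimulated arrays 1, 2 and 3 and control arrays 2 and 3, adjusted p up to 0.215).

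Of 23 measured chemokines, 5 rose and none fell, a count that was 5 in each of the 9 refits. Beside CCL20 and CXCL6, CXCL1 measured 9.71, 9.27 and 9.84 against 4.66, 3.64 and 5.61 (4.97 ± 0.57, adjusted p = 8.08e-07). CXCL8, interleukin-8, measured 6.45, 7.25 and 7.13 against 4.90, 5.08 and 4.96, a 3.89-fold rise (1.96 ± 0.33, adjusted p = 0.000194). CXCL16, a chemokine that is also a scavenger receptor, rose by 1.51 ± 0.22 (adjusted p = 2.58e-05). The other 18 had differences between -0.20 and 0.57. Of 26 genes of the interleukin-1 family and its receptors, 4 rose and none fell. They were the inflammasome sensor NLRP3 (2.09 ± 0.34, adjusted p = 0.000108), the cytokine IL1A (1.73 ± 0.26, adjusted p = 3.83e-05), the receptor-associated kinase IRAK2 (1.32 ± 0.32, adjusted p = 0.00730) and the cytokine IL36G (1.10 ± 0.30, adjusted p = 0.0195). IL1RN, the natural receptor antagonist, measured 3.99, 3.74 and 3.67 against 3.36, 3.28 and 3.18. Its groups did not overlap, and the difference of 0.52 ± 0.25 was not called (adjusted p = 0.259). IL1B itself was not analysed here. The count of 4 was 2 without number 2 and also without number 3. Left-out libraries ended the calls of IRAK2 (numbers 2 and 3, adjusted p up to 0.129) and IL36G (numbers 1, 2 and 3, stimulated array 2 and control array 1, adjusted p up to 0.177).

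Among 51 other cytokines and receptors, 8 rose and 5 fell. IL6 measured 10.15, 9.27 and 9.55 against 5.58, 3.87 and 4.89, a 29.4-fold rise (4.88 ± 0.64, adjusted p = 6.85e-06). The control of number 2 was the lowest and that of number 1 the highest of the controls. LIF, another cytokine that signals through the shared receptor chain gp130, rose by 1.91 ± 0.36 (adjusted p = 0.000738). That chain, IL6ST, fell from 12.27, 12.07 and 12.04 to 11.34, 11.37 and 11.27 (-0.80 ± 0.13, adjusted p = 8.86e-05). FGF18, a growth factor for chondrocytes, rose by 1.13 ± 0.21 (adjusted p = 0.000446), and the neurotrophin BDNF fell by 1.49 ± 0.29 (adjusted p = 0.00108). The 8 rises were 4 without number 2, and the 5 falls were 2 without number 1, 2 or 3 alike. Calls lost without a library were those of FGF18 (numbers 2 and 3, adjusted p up to 0.122) and BDNF (number 1, adjusted p up to 0.106).

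Of 41 measured NF-κB subunits, feedback genes and targets, 15 rose and 1 fell, and the median difference was 0.52. The subunit precursors NFKB1 (1.66 ± 0.20, adjusted p = 1.78e-06) and NFKB2 (1.54 ± 0.17, adjusted p = 4.02e-07) rose. The ubiquitin ligase BIRC3 measured 10.34, 10.42 and 10.13 against 8.06, 7.03 and 8.30 (2.50 ± 0.37, adjusted p = 3.62e-05). The transcription factor IRF1 (1.90 ± 0.22, adjusted p = 8.93e-07), the receptor TLR2 (1.89 ± 0.31, adjusted p = 0.000106) and the kinase MAP3K8 (1.14 ± 0.20, adjusted p = 0.000282) also rose. TNFAIP3, or A20, a feedback inhibitor, measured 7.16, 7.61 and 7.64 against 6.57, 5.64 and 7.11. Each stimulated array lay above each control, and the difference of 1.03 ± 0.37 was not called (adjusted p = 0.0943). TNFAIP3 passed without control array 3 (adjusted p = 0.0325) and in the blocked fit (adjusted p = 0.0446), and its difference was 0.56 without number 2. In BIRC3, TLR2 and TNFAIP3 the control of number 2 was the lowest array. The count of 15 was 6 and the 1 fall was lost without number 2. Lost on leaving out libraries were the calls of BIRC3 (number 2, adjusted p up to 0.0530) and TLR2 (number 2, adjusted p up to 0.0797).

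Of 36 measured genes of prostaglandin and nitric oxide synthesis, 8 rose and 3 fell, with a median difference of 0.07. NOS2 measured 11.90, 12.08 and 12.28 against 6.39, 5.60 and 6.19, a 65.4-fold rise. SLC7A2, which carries its substrate arginine into the cell, measured 11.28, 11.63 and 11.36 against 8.96, 7.97 and 8.40 (2.98 ± 0.34, adjusted p = 7.44e-07). In both genes all stimulated arrays lay above all controls by more than 2 log2 units. Along the path to prostaglandin E2, the phospholipase PLA2G4A, which frees arachidonic acid, rose by 3.43 ± 0.51 (adjusted p = 3.49e-05). The cyclooxygenase PTGS2 measured 11.54, 11.66 and 11.70 against 8.30, 7.20 and 8.51 (3.63 ± 0.44, adjusted p = 2.25e-06). The terminal synthase PTGES measured 9.14, 8.91 and 9.03 against 6.22, 5.50 and 6.44 (2.97 ± 0.32, adjusted p = 2.92e-07). The 3 consecutive enzymes thus rose together, with the control of number 2 lowest each time. DDAH1, which degrades an endogenous inhibitor of nitric oxide synthases, fell by 1.95 ± 0.24 (adjusted p = 1.86e-06). With the replicate block 5 rather than 3 genes of the list fell, and without number 2 the 8 rises were 5.

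Of 31 measured alarmins, acute-phase and complement genes, 7 rose and 3 fell. PTX3 measured 10.60, 10.42 and 9.94 against 3.91, 3.89 and 4.30, and TREM1 measured 12.38, 12.52 and 12.59 against 6.82, 5.72 and 6.62. STEAP4, a metalloreductase, measured 9.81, 9.44 and 9.06 against 5.19, 4.91 and 7.50 (3.57 ± 0.51, adjusted p = 2.17e-05). In STEAP4 the control of number 3 stood more than 2 log2 units above the other controls and still below the stimulated arrays. S100A9, an alarmin subunit of calprotectin, measured 8.29, 6.81 and 7.49 against 4.01, 4.10 and 4.17 (3.44 ± 0.40, adjusted p = 1.02e-06). Its partner S100A8 measured 6.62, 4.65 and 6.96 against 6.89, 6.07 and 6.88, overlapped and was not called (-0.54 ± 0.74, adjusted p = 0.795). S100A10, which anchors annexin A2, fell by 0.86 ± 0.17 (adjusted p = 0.00101). The 3 falls of the list were 1 without number 1.

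Among 37 genes of glycolysis and the hypoxia response, 15 rose and none fell, and the median difference was 0.86. The glucose transporter SLC2A1 measured 11.71, 11.74 and 11.91 against 9.97, 9.66 and 9.65 (2.03 ± 0.22, adjusted p = 4.83e-07). The glycolytic enzymes ALDOA (1.0 ± 0.12, adjusted p = 9.16e-07), TPI1 (1.21 ± 0.16, adjusted p = 6.91e-06), GAPDH (1.05 ± 0.14, adjusted p = 5.07e-06) and PGK1 (1.04 ± 0.15, adjusted p = 2.32e-05) rose by about 1 log2 unit each. GAPDH, often taken as a constant reference, measured 10.92, 10.94 and 10.97 against 9.88, 9.75 and 10.06, with no overlap between the groups. CA12, a carbonic anhydrase, rose by 2.46 ± 0.39 (adjusted p = 7.78e-05). The count of 15 was 7 without number 2. In oxidative phosphorylation, 4 of 25 genes rose and 2 fell, with a median of 0.07. C1H15orf48 measured 12.29, 12.59 and 12.69 against 6.20, 5.37 and 7.06, and NDUFA4L2, a hypoxia-responsive relative of a respiratory chain subunit, rose by 1.20 ± 0.25 (adjusted p = 0.00176). The 4 rises were 1 without number 2, and the 2 falls were 0 without number 1 or without number 3. A left-out library ended the call of NDUFA4L2 (number 2, adjusted p up to 0.0527).

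Of 54 measured genes of cytosolic ribosomal proteins, 49 fell and none rose, with a median difference of -0.66. The differences were small and tight. RPL10A measured 11.13, 10.79 and 10.99 against 12.30, 12.34 and 12.33 (-1.35 ± 0.11, adjusted p = 5.00e-09). RPL19 measured 10.74, 10.45 and 10.40 against 11.75, 11.69 and 11.78 (-1.21 ± 0.13, adjusted p = 1.82e-07), and RPS9 measured 11.89, 11.58 and 11.82 against 12.77, 12.75 and 12.78 (-1.0 ± 0.12, adjusted p = 2.16e-06). The controls of each of these 3 genes lay within 0.1 log2 unit of each other. RPL24 (-1.15 ± 0.13, adjusted p = 7.26e-07), RPL35 (-1.15 ± 0.13, adjusted p = 9.96e-07) and RPL8 (-1.11 ± 0.14, adjusted p = 3.74e-06) fell by similar amounts. The 5 genes not called lay between -0.31 and 0.05. Averaged over the 54 genes, the stimulated arrays lay at 11.52 to 11.79 and the controls at 12.30 to 12.36. The count of 49 was 16 without number 2, 31 without number 3 and 22 with the 6 arrays of day 9 alone. Ribosomal protein genes have near-identical pseudogene copies, which the probes may not tell apart.

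**Figure D3:**
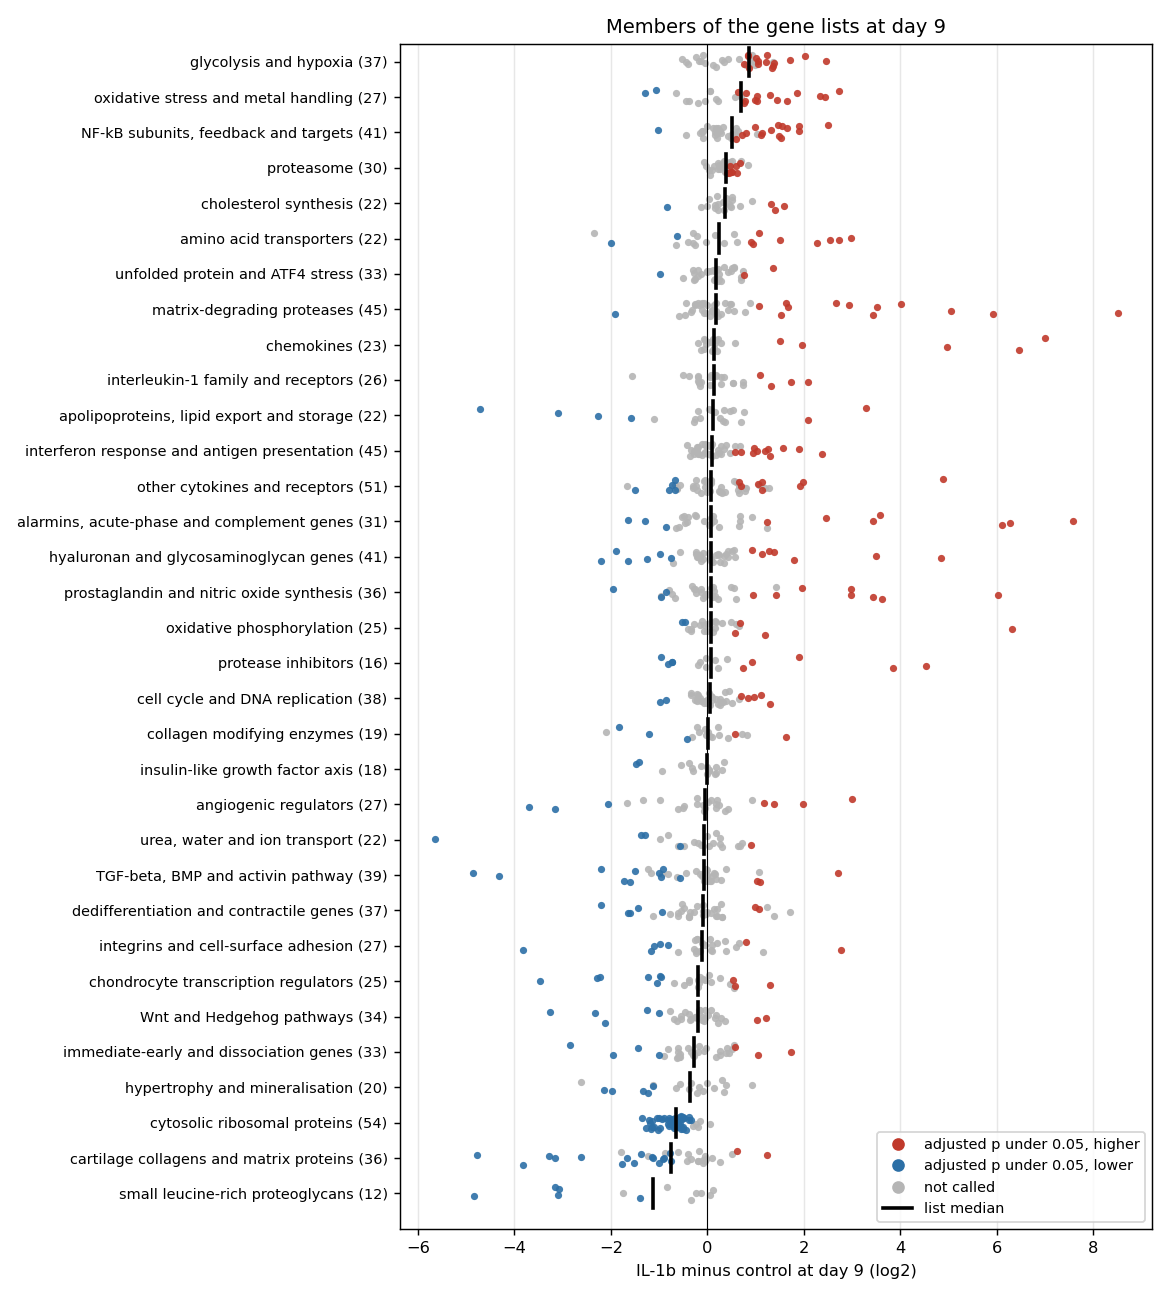
Difference between IL-1β and control at day 9 for each measured member of 33 gene lists, on the log2 scale, with the number of measured members after the name of the list. Red and blue points passed an adjusted p of 0.05 as higher and lower, grey points did not, and the black tick is the median of the list. Glycolysis and hypoxia has the highest median at 0.86 and the small leucine-rich proteoglycans the lowest at -1.12.

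Of 27 measured genes of oxidative stress and metal handling, 14 rose and 2 fell, and the median difference was 0.69. SLC11A2, the divalent metal transporter, measured 10.000, 10.22 and 9.94 against 7.77, 6.88 and 8.21 (2.43 ± 0.26, adjusted p = 4.17e-07). The transferrin receptor TFRC rose by 1.65 ± 0.22 (adjusted p = 7.59e-06) and the ferritin light chain FTL by 1.03 ± 0.19 (adjusted p = 0.000428). The thiol-handling genes TXNRD1 (1.44 ± 0.26, adjusted p = 0.000462), TXN (0.63 ± 0.12, adjusted p = 0.000589) and GCLM, a subunit of the enzyme that starts glutathione synthesis (1.30 ± 0.27, adjusted p = 0.00211), rose. SOD2, the mitochondrial superoxide dismutase, measured 13.62, 13.67 and 13.62 against 13.02, 12.14 and 12.79 (0.99 ± 0.25, adjusted p = 0.0103), with the control of number 2 lowest. SLC39A8, a zinc importer, measured 10.75, 11.02 and 10.79 against 9.65, 6.55 and 9.35 (2.34 ± 0.60, adjusted p = 0.0132), and its control of number 2 lay more than 2 log2 units below the other 5 arrays. The count of 14 was 3 and that of 2 was 0 in single refits, the first without number 2 and the second without number 1, and 4 genes fell with the replicate block. Refits without a library ended the calls of TXNRD1 (number 2, adjusted p up to 0.0504), TXN (number 2, adjusted p up to 0.0811) and FTL (number 2, adjusted p up to 0.145) and of SOD2 (number 2 and control array 2, adjusted p up to 0.433) and SLC39A8 (number 2, stimulated array 2 and control array 2, adjusted p up to 0.572, difference 1.27 without number 2).

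Of 22 amino acid transporters, 8 rose and 2 fell, with a median of 0.25. The cystine transporter SLC7A11 measured 9.23, 9.56 and 9.40 against 5.42, 6.12 and 8.49 (2.72 ± 0.59, adjusted p = 0.00274). The control of number 3 stood just below the stimulated arrays, and the other controls lay more than 3 log2 units below them. The glutamate transporter SLC1A3 rose by 2.53 ± 0.46 (adjusted p = 0.000458) and the neutral amino acid transporter SLC43A2 by 2.26 ± 0.23 (adjusted p = 1.82e-07). SLC38A3, a glutamine transporter, fell by 2.0 ± 0.26 (adjusted p = 6.70e-06). The 8 rises were 3 without number 2, and the 2 falls were 1 without number 2 or without number 3. Left-out libraries ended the call of SLC7A11 (numbers 1 and 2, adjusted p up to 0.183). In cholesterol synthesis, 3 of 22 genes rose (13.6%) and 1 fell (4.55%), beside 5.37% and 4.82% of all genes. With the replicate block 5 rose. The enzymes MSMO1 (1.41 ± 0.30, adjusted p = 0.00208) and HMGCS1 (1.59 ± 0.37, adjusted p = 0.00496) and the transcription factor SREBF2 (1.32 ± 0.30, adjusted p = 0.00500) rose, and INSIG2, which holds back sterol-regulated transcription factors, fell (-0.84 ± 0.22, adjusted p = 0.0140). Each of these calls was lost without a library, in MSMO1 (number 2, adjusted p up to 0.156) and HMGCS1 (numbers 1 and 2 and control array 2, adjusted p up to 0.310, difference 0.96 without number 2) and in SREBF2 (numbers 2 and 3 and control array 2, adjusted p up to 0.312) and INSIG2 (numbers 1 and 3 and control arrays 1 and 3, adjusted p up to 0.165). Of 22 genes of apolipoproteins, lipid export and storage, 4 fell and 2 rose. The 4 were APOD, at 4.61, 3.78 and 3.86 against 9.96, 9.71 and 6.71, APOA1 (-3.09 ± 0.45, adjusted p = 3.10e-05), the lipid transfer protein PLTP (-2.26 ± 0.35, adjusted p = 6.50e-05) and the cholesterol exporter ABCA1 (-1.58 ± 0.32, adjusted p = 0.00141). FABP5, a fatty acid carrier, measured 10.19, 11.38 and 11.39 against 6.68, 7.11 and 9.28 (3.30 ± 0.61, adjusted p = 0.000571), and the oxysterol hydroxylase CYP7B1 rose by 2.08 ± 0.62 (adjusted p = 0.0358). The 2 rises were 4 with the replicate block and 0 without number 2, which ended the calls in FABP5 (number 2, adjusted p up to 0.113) and CYP7B1 (numbers 1 and 2, stimulated arrays 1, 2 and 3 and control arrays 1 and 2, adjusted p up to 0.409).

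Of 45 measured genes of the interferon response and antigen presentation, 11 rose and none fell, with a median of 0.10. The exonuclease ISG20 measured 9.54, 9.37 and 9.46 against 7.26, 6.37 and 7.60 (2.38 ± 0.33, adjusted p = 1.71e-05). DHX58, an RNA sensor, rose by 1.57 ± 0.26 (adjusted p = 0.000172), and the peptide transporter TAP2 by 1.20 ± 0.28 (adjusted p = 0.00555). ISG15, a ubiquitin-like protein, rose by 1.03 ± 0.25 (adjusted p = 0.00684). The other 34 genes lay between -0.42 and 0.67. The count of 11 was 3 without number 2. Refits without a library ended the calls of TAP2 (number 2, adjusted p up to 0.291) and ISG15 (number 2 and control array 2, adjusted p up to 0.388). In the proteasome, 8 of 30 subunits rose and none fell, all by less than 1 log2 unit, with PSMB4 at 0.68 ± 0.13 (adjusted p = 0.000632) and PSMA7 at 0.45 ± 0.10 (adjusted p = 0.00388). None of the proteasome subunits passed without number 1, without number 2 or with the 6 arrays of day 9 alone, and left-out libraries ended the calls of PSMB4 (numbers 1 and 2, adjusted p up to 0.110) and PSMA7 (numbers 1, 2 and 3, adjusted p up to 0.221). Of 33 genes of the unfolded protein response, 2 rose and 1 fell, a share of 9.09% beside 10.2% of all genes. The stress transcription factor ATF4 rose by 1.36 ± 0.33 (adjusted p = 0.00734), and the other 2 were EDEM1 (0.77 ± 0.23, adjusted p = 0.0377) and PHGDH (-0.98 ± 0.29, adjusted p = 0.0332). Each was lost without a library, in ATF4 (number 2 and control array 1, adjusted p up to 0.176), EDEM1 (numbers 1, 2 and 3, stimulated arrays 1, 2 and 3 and control array 3, adjusted p up to 0.349) and PHGDH (numbers 1 and 2, stimulated arrays 2 and 3 and control arrays 1 and 2, adjusted p up to 0.550, difference -0.62 without control array 2).

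Among 38 genes of the cell cycle, 5 rose (13.2%) and 2 fell (5.26%), beside 5.37% and 4.82% of all genes. TYMS, thymidylate synthase, rose by 0.85 ± 0.17 (adjusted p = 0.00136) and the kinase CDK2 by 1.29 ± 0.28 (adjusted p = 0.00319). The 5 rises were 1 without number 2, and the 2 falls were 0 without number 1 or without number 2. Left-out libraries ended the call of CDK2 (numbers 1 and 2, adjusted p up to 0.106). Of 33 immediate-early and tissue dissociation genes, 4 fell and 3 rose, with a median of -0.29. The nuclear receptor NR4A1 measured 8.31, 8.26 and 8.21 against 11.002, 11.19 and 11.13, a 7.2-fold fall (-2.85 ± 0.25, adjusted p = 9.61e-09). Its groups stood more than 2 log2 units apart, with little spread in either. NR4A2 (-1.45 ± 0.33, adjusted p = 0.00421) and the transcription factor EGR3 (-1.95 ± 0.40, adjusted p = 0.00161) also fell, and KLF6, a zinc finger transcription factor, rose (1.74 ± 0.35, adjusted p = 0.00153). With the replicate block 7 genes of the list fell in place of 4, and 2 fell without number 1. The 3 rises were 0 without number 2. Left-out libraries ended the calls of NR4A2 (number 3, adjusted p up to 0.106), EGR3 (number 1, adjusted p up to 0.125) and KLF6 (number 2, adjusted p up to 0.112). Both groups were digested alike before lysis, and the part of digestion in these genes was not tested.

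In urea, water and ion transport, 4 of 22 genes fell (18.2%) and 1 rose (4.55%), beside 4.82% and 5.37% of all genes. Beside SLC14A1, the scramblase and channel ANO6 fell from 9.80, 9.87 and 10.03 to 8.33, 8.56 and 8.94 (-1.29 ± 0.17, adjusted p = 4.57e-06). The 4 falls were 2 without number 1 or without number 2, and the single rise was lost without number 2 or without number 3. Of 27 integrins and surface adhesion genes, 5 fell and 2 rose. ITGB8, an integrin chain that activates latent transforming growth factor beta, measured 9.31, 9.08 and 8.55 against 6.30, 6.45 and 5.86 (2.77 ± 0.41, adjusted p = 3.34e-05). ITGA10, the collagen-binding integrin of chondrocytes, fell by 1.16 ± 0.28 (adjusted p = 0.00667), and ITGBL1 measured 6.32, 6.95 and 7.54 against 10.72, 11.08 and 10.52. The 5 falls and 2 rises were 1 each without number 2, and the 2 rises were also 1 without number 3. Left-out libraries ended the call of ITGA10 (numbers 1 and 2, adjusted p up to 0.168). Of 37 genes of dedifferentiation and contractility, 2 rose (5.41%) and 5 fell (13.5%), beside 5.37% and 4.82% of all genes. CCN2 measured 10.37, 10.09 and 10.20 against 12.80, 12.75 and 11.75, and the related CCN1 fell by 1.60 ± 0.22 (adjusted p = 1.52e-05). COL12A1, a fibril-associated collagen, fell by 1.64 ± 0.38 (adjusted p = 0.00603). COL1A1, the collagen of fibroblasts and bone, measured 4.76, 4.94 and 5.01 against 4.79, 4.90 and 5.07 and was not called (-0.01 ± 0.14, adjusted p = 0.980). The 2 rises were 0 and the 5 falls 2 without number 2, which also ended the call in COL12A1 (number 2, adjusted p up to 0.186). Of 27 angiogenic regulators, 4 rose and 3 fell. The secreted ANGPTL2 (2.99 ± 0.49, adjusted p = 0.000137) and ANGPTL4 (1.98 ± 0.26, adjusted p = 8.38e-06) and the receptor NRP2 (1.38 ± 0.22, adjusted p = 9.54e-05) rose, and SEMA3D, a semaphorin, fell (-2.07 ± 0.43, adjusted p = 0.00171) beside CNMD. With the replicate block 5 rather than 3 fell. Calls lost without a library were those of NRP2 (number 2, adjusted p up to 0.0599) and SEMA3D (number 3, adjusted p up to 0.0557).

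The array also holds precursors of microRNAs. Of 318 measured, 3 rose and 2 fell, a share of 1.57% beside 10.2% of all genes. MIR222 measured 8.34, 8.80 and 9.05 against 7.15, 6.38 and 7.63 (1.68 ± 0.41, adjusted p = 0.00925), and MIR197 measured 6.87, 6.33 and 6.67 against 5.53, 5.50 and 5.79 (1.01 ± 0.19, adjusted p = 0.000523). In both the groups did not overlap. MIR101-1 rose by 1.34 ± 0.40 (adjusted p = 0.0356), and MIR374B (-1.32 ± 0.36, adjusted p = 0.0219) and MIR421 (-1.08 ± 0.32, adjusted p = 0.0360) fell. Each of the 5 calls was lost without a library, in MIR222 (numbers 2 and 3, stimulated array 3 and control array 2, adjusted p up to 0.165), MIR197 (number 1, adjusted p up to 0.0617) and MIR101-1 (numbers 2 and 3, stimulated arrays 2 and 3 and control arrays 1, 2 and 3, adjusted p up to 0.530) and in MIR374B (numbers 1 and 2, stimulated array 2 and control arrays 1 and 2, adjusted p up to 0.472) and MIR421 (numbers 1 and 2, stimulated array 2 and control arrays 1 and 2, adjusted p up to 0.769, difference -0.42 without number 2). A probe set of a precursor does not measure the mature strand.

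The explants were checked against markers of chondrocytes and of other cell types. Of 11 measured chondrocyte markers, 5 fell and 1 rose. Their mean level over the list was 7.44 to 7.69 in stimulated and 8.48 to 8.86 in control arrays. Of 15 macrophage and monocyte markers, 1 was called, a share of 6.67% beside 10.2% of all genes. It was FCER1G, the common gamma chain of Fc receptors, which rose, at 8.45, 8.65 and 8.62 against 4.31, 4.90 and 4.44 (4.02 ± 0.25, adjusted p = 2.74e-11). The other 14 lay between -0.51 and 0.54, and the list averaged 4.78 to 4.86 with IL-1β and 4.41 to 4.58 in controls. Of 7 neutrophil markers, S100A12, MMP8 and S100A9 rose, and the other 4 lay between -0.54 and 0.19. The neutrophil list averaged 6.69 to 7.27 with IL-1β and 4.68 to 4.82 in controls. Of 8 osteoclast markers, CTSK, a collagen-degrading cathepsin, at 12.20, 12.67 and 12.40 against 10.82, 10.54 and 11.36 (1.52 ± 0.24, adjusted p = 8.79e-05), and ATP6V0D2, a proton pump subunit (1.63 ± 0.51, adjusted p = 0.0474), rose. Of 10 synovial lining and fibroblast markers, CD55, a complement regulator, rose (2.46 ± 0.49, adjusted p = 0.00132), a share of 10% called beside 10.2% of all genes. Of 10 endothelial markers, VWF (-0.95 ± 0.28, adjusted p = 0.0336) and ERG fell. None of 7 osteoblast, 12 lymphocyte, 5 red cell and 11 adipocyte and muscle markers was called. Over the 6 arrays the macrophage markers CSF1R and CD163 reached 5.23 and 3.78, and the neutrophil markers MPO and CSF3R reached 5.14 and 5.47. These are examples that do not stand for their lists, in which FCER1G reached 8.65. Signal over background was not examined, so such levels do not show that a cell type was absent. Without number 2 the 5 falls of chondrocyte markers were 3, and no osteoclast or synovial marker passed. The rise of 1 chondrocyte marker, HAPLN1, was lost without number 1 and without number 2. CD163 was lower without control array 1 (adjusted p = 0.0146). The part of other cell types in the results was not tested. Lost on leaving out libraries were the calls of CTSK (number 2, adjusted p up to 0.0530) and ATP6V0D2 (numbers 1, 2 and 3, stimulated arrays 2 and 3 and control arrays 1, 2 and 3, adjusted p up to 0.520) and of CD55 (number 2, adjusted p up to 0.118) and VWF (numbers 2 and 3, stimulated arrays 2 and 3 and control arrays 2 and 3, adjusted p up to 0.356, difference -0.59 without number 3).

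The effect of IL-1β at day 9 was set beside that of the other days, each with its own controls. The same fit called 860 probe sets (3.32%) and 4.46% of genes at day 3. It called 3284 probe sets (12.7%) and 16.6% of genes at day 15, 3144 (12.1%) and 16% at day 21, and 3833 (14.8%) and 19.7% at day 27. Of the 1698 genes called at day 9, 621 were also called at day 3, which is 36.6% of those of day 9 and 83.6% of those of day 3. With day 15, 1367 genes were shared, 80.5% of those of day 9 and 49.3% of those of day 15. With day 27, 1307 were shared, 77.0% and 39.8%. Of the genes called at day 9, 515 were called on all 5 days, and 162 on no other day, which does not show that their effects differed. The difference itself was tested. The effect at day 9 minus that at day 3 passed for 1 probe set (0.00386%), BOC, with 1133 at an unadjusted p under 0.05 (4.37%). The effect at day 9 minus that at day 15 passed for none, with 1105 at an unadjusted p under 0.05 and a smallest adjusted p of 0.426. Against the mean effect of the other 4 days, none passed either, with 944 unadjusted and a smallest adjusted p of 0.275.

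BOC was lower with IL-1β by 0.84 at day 3 and by 3.27 at day 9, and the difference between these effects was -2.42 ± 0.33 (limma, adjusted p = 0.00204). Controls rose in mean level from 10.39 at day 3 to 11.48 at day 9 and stayed between 11.59 and 11.79 afterwards. Stimulated explants went from 9.55 at day 3 to 8.21 at day 9 and on to 7.70, 7.55 and 7.58. All 3 numbers showed the wider gap at day 9. BOC was picked by this contrast on the same arrays, so that is not separate support. BOC missed the threshold in this contrast without number 1 (-2.39, adjusted p = 0.440) and without number 2 (-2.13, adjusted p = 0.527), where no probe set passed, and passed without number 3 (-2.75, adjusted p = 0.0174), where 2 probe sets did. It passed without each of the 6 arrays of day 9 in turn, with adjusted p from 0.00182 to 0.0165. SLC14A1 fell by 3.33 at day 3 and 5.66 at day 9, and MMP1 rose by 6.84 and 8.52. COL2A1, with -0.09 ± 0.49 at day 9, differed by -1.10 on day 3, and by -2.04, -1.70 and -1.80 on days 15, 21 and 27. Its control mean was 6.31 at day 9 and 7.21 to 7.71 at the other 5 times, with stimulated means of 6.22 at day 9 and 5.41 to 6.28 otherwise. COL10A1 controls went from a mean of 9.94 at day 3 to 5.304 at day 27, and stimulated means lay between 3.98 and 5.27 throughout.

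**Figure D4:**
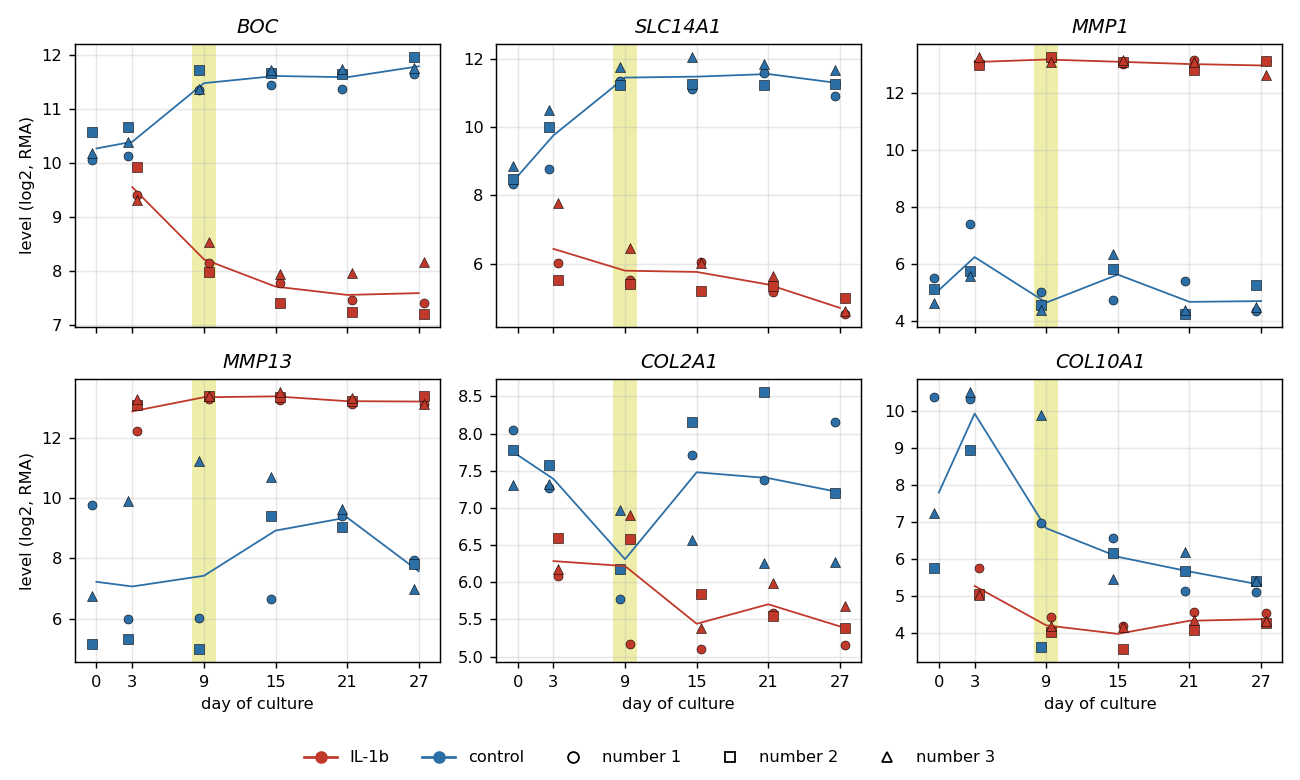
Levels of 6 genes by day of culture on the log2 scale, with day 9 shaded. Blue marks are the 3 control arrays and red marks the 3 stimulated arrays of a day, circles, squares and triangles are numbers 1, 2 and 3, and lines join group means. The arms of BOC, already apart at day 3, part further by day 9. The control of number 3 stands high for MMP13 and COL10A1 at day 9, and the mean lines of COL2A1 nearly meet at day 9.

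The 3 numbers did not give differences of equal size. Over all probe sets the standard deviation of the differences was 0.552 in number 1, 0.690 in number 2 and 0.617 in number 3, and among called probe sets the median size was 0.851, 1.11 and 0.964. Of the 895 genes that rose, the control of number 2 was the lowest control in 59.8%, beside 35.3% of all genes, and the stimulated array of number 1 was the lowest stimulated array in 47.9%, beside 32.0%. Of the 803 genes that fell, the stimulated array of number 1 was the highest stimulated array in 50.7%, beside 36.0% of all genes. These shares describe genes chosen on the same arrays. The genes whose 3 differences were most spread among those called were MMP13, SLC39A8, OGN, THBS4, TSPAN8 and ANGPTL7. In OGN the control of number 2 was high at 9.02 and that of number 3 low at 4.36. THBS4, thrombospondin-4 of the matrix, measured 5.87, 5.85 and 7.92 against 11.10, 10.94 and 7.47 (-3.29 ± 0.97, adjusted p = 0.0345), and its groups overlapped. TSPAN8, a tetraspanin, measured 4.51, 4.59 and 4.07 against 9.34, 9.72 and 4.69 (-3.53 ± 1.01, adjusted p = 0.0277). ANGPTL7, an angiopoietin-like secreted protein, measured 4.80, 4.56 and 4.61 against 9.57, 9.60 and 5.86 (-3.69 ± 0.84, adjusted p = 0.00462). In these last 3 genes the control of number 3 lay more than 3 log2 units below the other controls. Refits without a library ended the calls of THBS4 (numbers 1 and 2, stimulated arrays 1 and 2 and control arrays 1 and 2, adjusted p up to 0.406, difference -5.16 without number 3), TSPAN8 (numbers 1 and 2, stimulated arrays 1, 2 and 3 and control arrays 1 and 2, adjusted p up to 0.482) and ANGPTL7 (numbers 1 and 2, adjusted p up to 0.151).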

How the data were processed

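RNA was hybridised to an Affymetrix gene array. Per the labels' protocols, 2 ng of RNA was amplified for each sample, a low input. The table the authors deposited holds log2 values of 25923 probe sets in 33 columns. The submitters' processing notes name Affymetrix Expression Console, limma and RMA, without roles or versions. RMA normalises arrays by quantiles, which removes a change shared by most genes, and compresses folds of genes near the lowest and highest signals. The log base was read from the range of the values, 1.50 to 13.9. Signal over background was not examined, and the number of arrays limits the precision.

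Gene names came from the platform's annotation table, whose symbols can be outdated. It gave 1 symbol to 16789 probe sets and several to 343, which stayed unnamed, and listed no symbol for 8791. Each of the 16661 symbols was read from the probe set of highest mean level. Of 1189 genes in the lists, 134 had no such probe set and were not analysed here.

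The model was fitted with limma 3.58.1 (R 4.3.3, functions lmFit, contrasts.fit and eBayes), with 1 mean per group over all 33 arrays (22 residual degrees of freedom) and no block. The block was kept as an alternative because no label says in words that a number is a horse. The main fit thus left out the pairing by number, and with the fixed block 2530 rather than 1954 probe sets were called. The groups share 1 estimate of the spread because each holds only 3 arrays. Tests were two-sided, and Benjamini-Hochberg adjustment ran across the 25923 probe sets, with calls at an adjusted p under 0.05. The scripts were tested on simulated data. The members, gene lists and naming rule were chosen with earlier results of these data known. The rule named the 12 highest and 12 lowest differences among called genes with 1 sign in all 3 numbers, 22 fixed genes, up to 6 genes with the smallest p per list, genes that passed a difference between days, the 6 called genes with the most spread differences and 6 microRNA precursors. Not every gene it names is printed. No set test was run, and lists are described by counts and medians.

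Each replicate number goes with 1 prefix in the sample descriptions, and a number was read as 1 horse, which no label states in words. Deviations from the group means of the same number at day 9 correlated at 0.103 to 0.243, and at 0.078 or more in all 15 pairs over the days. Those of different numbers at day 9 correlated at -0.178 to -0.005. Deviations within a group cancel out, so these negative values are not separate support. On the same-number values, which are low, the arrays were read as paired by number. The main fit did not use this pairing, so its standard errors and p-values are those of an unpaired fit. If a number were not a separate animal, p-values would measure only the spread between these samples. No 2 arrays held identical values (0 pairs). Alternatives were the number as a fixed or random block, the 6 arrays of day 9 alone, each number or array left out, other probe set and variance choices and repeated quantile normalisation.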

Additional observations from a re-analysis of the deposited data

Results flagged for a closer look

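The effect of IL-1β on BOC was the single value marked for a closer look, because a test of the difference between days passed. The effect at day 9 minus that at day 3 was -2.42 (limma, adjusted p = 0.00204), with effects of -0.84 at day 3 and -3.27 at day 9. In each of the 3 numbers the difference was more negative at day 9, on the same arrays by which BOC was picked. Without number 1 the difference was -2.39 and without number 2 it was -2.13, and neither passed (adjusted p of 0.440 and 0.527).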

How the results depend on the processing

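With the replicate number as a fixed replicate block 2530 probe sets were called at day 9 in place of 1954, and with a random block 2307. Every one of the 1954 calls remained, and the block changed no called gene of the text, while those it added are given beside their values. Pairing in a fit of the 6 arrays of day 9 alone gave 1127 calls (561 higher, 566 lower), and those arrays without the block gave 1102 (567 higher, 535 lower), where fewer arrays enter the fit. At least 2-fold calls numbered 941 (497 higher, 444 lower). Over the fits that left out a number or 1 array of day 9, the last chosen after the data were seen, the count ranged from 638 to 1830, with 285 to 966 higher and 353 to 864 lower. The lowest of these came without number 2. The fits without number 1, 2 or 3 each had 11 residual degrees of freedom, and the cause of the lower count was not tested. Without stimulated array 2 the count was 1302. The number of probe sets whose effect differed between day 9 and day 3 ranged from 0 to 3, between day 9 and day 15 from 0 to 1, and between day 9 and the other days from 0 to 1. The other settings kept the counts within 1.5 times. Signs changed in these genes that were not called. ADAMTS5 ranged over the left-out fits from -0.13 to 1.29, COL2A1 from -0.44 to 0.43, COL1A1 from -0.079 to 0.061, SOX9 from -0.23 to 0.035 and S100A8 from -0.98 to 0.18. Repeated quantile normalisation gave COL1A1 0.053. The cause was not tested. No called gene of the text changed sign, in fits that reuse arrays of the main fit. A difference of a low gene is limited by signal over background, which was not measured here. Arrays number 3 per group, and digestion, amplification and RMA are shared by both groups.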

Other observations

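Beside BOC, no gene passed a test of a difference between days, and the genes with the smallest p are given as values, chosen after these were seen. RASGRP1, a guanine nucleotide exchange factor of Ras, had an effect of IL-1β of 0.39 at day 3 and 3.04 at day 9 (difference 2.65 ± 0.55, adjusted p = 0.474 with limma). ENPP1, which makes pyrophosphate, had effects of -0.99 and -1.98, and CTSK, a cathepsin that degrades collagen, effects of -0.01 and 1.52 on the same days. CNMD was at -3.16 at day 9 and -4.92 at day 15 (difference 1.75 ± 0.34, adjusted p = 0.426). ALPL, the alkaline phosphatase of mineralising tissue, was at -1.13 at day 9 and -4.54 at day 15 (adjusted p = 0.873). Against the mean effect of the other 4 days, the link protein gene HAPLN1 differed by 0.89 ± 0.18 (adjusted p = 0.275), with effects of -0.01, 0.63, 0.04, -0.62 and -0.47 from day 3 to day 27. The ribosomal protein gene RPS21 had an effect of -1.08 at day 9 and of -0.34 to -0.15 on the other days (adjusted p = 0.275). NDUFA4L2 was at 1.20 at day 9 and at -1.35 at day 27, and VMO1 at 1.53 at day 9 and 2.30 to 3.54 on the other days, both with an adjusted p of 0.275. None of these passed, and the values describe the arrays at hand.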
